A study of Rattus norvegicus with 8 samples.

Results

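The genes described here carry the symbols of proteins of the cytosolic ribosome or of their paralogs, and RefSeq lists 4 of them as pseudogenes. They were chosen from the authors' deposited table by gene symbol: Rpl or Rps followed by a number, or Rplp0, Rplp2 or Rpsa, with S6 kinase genes and symbols containing -ps left out. The rule found 154 probe sets for 94 genes, of 21239 genes with 1 symbol on the array, and the probe set with the highest mean log2 signal stood for each gene. There were 38 genes of the small subunit, 54 of the large subunit and 2 of the stalk. Of the 94 genes, 75 carried a standard ribosomal protein symbol and 19 a paralog or "like" symbol. Rps6 and Rplp1 were not analysed here.

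RNA from the dorsal hippocampus was hybridised to 8 Affymetrix arrays, 1 for each animal. The animals were drug-naïve, young adult Sprague-Dawley males of the first generation, each from a different father and litter. The 4 nicotine-sired animals had fathers that took nicotine by intravenous self-administration at 0.03 mg/kg for 60 days, and the 4 saline-sired animals had yoked fathers that received saline. Tissue was punched from both hemispheres, so each array mixes all cell types of a small block, and fewer cells of a type cannot be told apart from less RNA per cell.

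Each ribosome is built from a small subunit, which reads the messenger RNA, and a large subunit, which joins amino acids, and nearly every protein is present in a single copy. Cells therefore make ribosomal proteins in matched amounts, and in neurons ribosomes also serve protein synthesis in dendrites. The mammalian messages share a run of pyrimidines at their first bases, the terminal oligopyrimidine tract, through which the growth kinase mTOR and the RNA-binding protein Larp1 control their translation.

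The tissue was described with marker lists: all 10 CA1 pyramidal markers and 6 of 9 dentate granule markers lay above the signal filter. The 7 striatal and septal markers and 5 of 9 choroid plexus markers did so too, so passing the filter does not identify the tissue. The marker levels differed between animals. The CA1 markers had a higher mean in nicotine-sired animals for 10 of 10 genes (mean centred level -0.07 to 1.82, against -1.59 to -0.04 in saline-sired animals), and the dentate markers for 0 of 9 (-1.12 to 0.01, against 0.09 to 0.55). The oligodendrocyte markers had a higher mean for 7 of 7 genes (-0.07 to 0.38, against -0.40 to 0.02), microglial markers for 8 of 8 (-0.07 to 0.26, against -0.26 to -0.01), endothelial markers for 5 of 5 (0.04 to 0.21, against -0.35 to 0.11) and astrocyte markers for 6 of 7 (0.03 to 0.07, against -0.10 to 0.02). General neuronal markers had a higher mean for 2 of 7 genes (-0.14 to 0.03, against 0.03 to 0.10). Nicotine-sired animal 4 stood apart, with choroid plexus markers at 3.63 and striatal and septal markers at 2.09, against -0.80 to -0.68 and -0.45 to -0.28 in the other nicotine-sired animals and -0.93 to 0.44 and -0.54 to -0.06 in saline-sired animals. The part of these markers in the results below was not tested. The median log2 signal of an array lay between 6.25 and 6.29 in nicotine-sired and between 6.30 and 6.35 in saline-sired animals.

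No ribosomal protein gene differed between the groups past the threshold. Of the 94 genes, 78 lay above the signal filter (a mean log2 signal over 6.30) and were tested with limma beside all 15161 probe sets kept, and 0 of 78 passed an adjusted p of 0.05, while 2.06% of all kept probe sets did (1.18% higher and 0.884% lower in nicotine-sired animals). The smallest adjusted p among them was 0.0976, for Rpl19. At an unadjusted p under 0.05 there were 7 of 78 genes, all higher in nicotine-sired animals, or 8.97%, against 24.0% of all kept probe sets (13.9% higher and 10.1% lower). With no filter, 0 of 94 genes passed, and the share over all probe sets was 0.511%. Over all 94 genes 63 had a positive difference, against 45.9% of all probe sets. By the p-values in the authors' deposited table, Rps15 alone of the 94 genes passed, at an adjusted p of 0.0451, and 4.81% of its rows did.

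The differences were small and leaned to one side. The log2 difference, nicotine-sired minus saline-sired, was above 0 in 57 of 78 genes (73.1%), against 54.3% of all kept probe sets, and such genes are counted as higher below whether or not they passed. Its median was 0.06, against 0.02 over all kept probe sets, and it ran from -0.26 for Rps16 to 0.31 for Rps15. The value of Rps16 depended on single arrays: it was -0.69 without saline-sired animal 2 and -0.45 without nicotine-sired animal 4, but -0.01 without nicotine-sired animal 3, -0.10 without saline-sired animal 3 and -0.02 without saline-sired animal 4. By the probe set used, 77 of the 78 genes lay within 0.3 of 0 and 0 lay beyond 0.5, whereas 5.39% of all kept probe sets lay beyond 0.5. Without nicotine-sired animal 4 the median was 0.02 with 47 genes higher, and the median of all kept probe sets, 0.02, was then no lower.

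**Figure D1:**
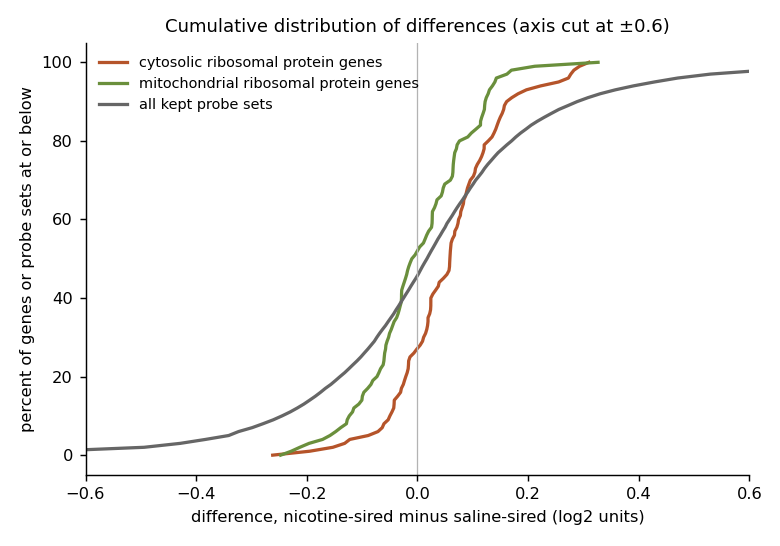
Cumulative percent of genes or probe sets (vertical axis) at or below each log2 difference, nicotine-sired minus saline-sired (horizontal axis), for the 78 cytosolic ribosomal protein genes, 75 mitochondrial ribosomal protein genes and all 15161 kept probe sets. At a difference of 0 the curve of the cytosolic genes is the lowest of the 3, with a median of 0.06 against -0.01 for the mitochondrial genes, and it is steeper than the curve of all kept probe sets.

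The precision behind these values was set by the 4 arrays a group. The 95% confidence interval of the difference lay wholly within 0.5 of 0 for 71 of the 78 genes, within 0.3 for 57 and within 0.2 for 19. Its median half-width was 0.17, from 0.096 for Rps29 to 0.95 for Rps16. The median within-group standard deviation was 0.110 for the ribosomal protein genes and 0.131 for all kept probe sets.

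**Figure D2:**
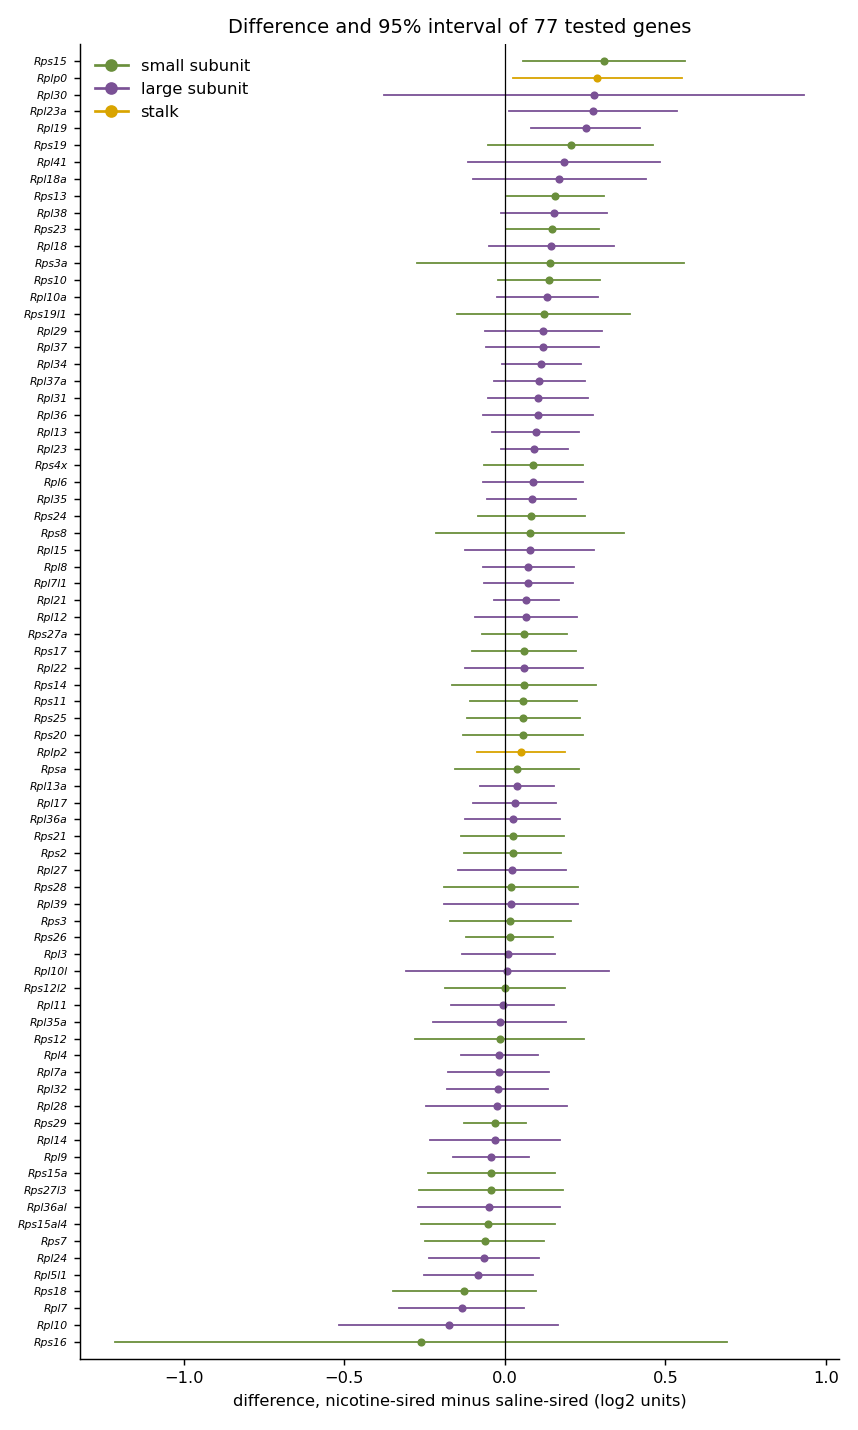
Log2 difference, nicotine-sired minus saline-sired (horizontal axis), of 77 of the 78 tested genes (rows, sorted), with its 95% confidence interval from limma, coloured by subunit. Most points lie between -0.13 and 0.21, the intervals of 6 of these genes lie above 0 and none below, and Rps16 and Rpl30 have the widest intervals.

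Among the small-subunit genes, 24 of 32 tested were higher, with a median difference of 0.06. Of the 32, 0 passed, against 2.06% of all kept probe sets. Rps15, a protein of the subunit head, had log2 signals of 9.26, 9.04, 8.99 and 9.05 in nicotine-sired animals 1 to 4, against 8.60, 8.59, 8.88 and 9.04 in saline-sired animals 1 to 4. The saline-sired group was spread, with animal 4 near the level of 3 of the nicotine-sired animals, so the groups overlapped. Its difference was 0.31 ± 0.11 (SE, limma adjusted p = 0.142).

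Rps23, a protein of the decoding centre, had 11.58, 11.34, 11.51 and 11.63 in nicotine-sired animals 1 to 4, against 11.38, 11.35, 11.35 and 11.39 in saline-sired animals 1 to 4. The saline-sired animals lay close together, and nicotine-sired animal 2 lay below all of them (difference 0.15 ± 0.06, limma adjusted p = 0.198). Rps13, which binds the body of the small subunit, had 10.17, 10.08, 10.12 and 10.28 in nicotine-sired animals 1 to 4, against 9.91, 9.96, 10.04 and 10.11 in saline-sired animals 1 to 4. The groups overlapped at their edges (difference 0.16 ± 0.07, limma adjusted p = 0.195).

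Of the small-subunit genes with a negative difference, Rps18, which touches the transfer RNA from the subunit head, had the smallest p. It had 9.81, 9.52, 9.87 and 9.92 in nicotine-sired animals 1 to 4, against 9.75, 9.93, 9.89 and 10.07 in saline-sired animals 1 to 4. Nicotine-sired animal 2 was the lowest of the 8 and the rest were mixed (difference -0.13 ± 0.10, limma adjusted p = 0.466). The difference was -0.04 without that animal and -0.07 without saline-sired animal 4. Rps7 averaged 11.85 ± 0.07 in nicotine-sired and 11.91 ± 0.17 in saline-sired animals (SD, n = 4 each), and Rps29, a small zinc-binding protein, 13.21 ± 0.02 in nicotine-sired and 13.24 ± 0.07 in saline-sired animals. The probe set used for Rps29 had the narrowest interval of all 78 genes, -0.13 to 0.07. The 3 probe sets of Rps29 ran from a difference of -0.03 to 0.19.

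Rpsa, which is also known as the laminin receptor precursor, averaged 11.88 ± 0.18 in nicotine-sired and 11.85 ± 0.08 in saline-sired animals (SD, n = 4 each). Rps27a, made as a fusion with ubiquitin, averaged 12.17 ± 0.07 in nicotine-sired and 12.10 ± 0.09 in saline-sired animals. Both differences, 0.04 and 0.06, were smaller than the spread within the groups. Rps16 and Rps3a were among the most variable genes. Rps16 had 6.77, 6.55, 5.83 and 7.15 in nicotine-sired animals 1 to 4, against 6.92, 5.54, 7.32 and 7.55 in saline-sired animals 1 to 4, and both groups held a low animal, nicotine-sired 3 and saline-sired 2. Rps3a had 7.07, 6.83, 7.18 and 6.99 in nicotine-sired animals 1 to 4, against 6.61, 6.50, 6.99 and 7.41 in saline-sired animals 1 to 4, with the saline-sired group spanning the nicotine-sired one.

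In the large subunit, 31 of 44 tested genes were higher, with a median difference of 0.07. Of the 44, 0 passed, against 2.06% of all kept probe sets. Rpl19, which takes part in a bridge between the subunits, had log2 signals of 9.99, 9.82, 9.93 and 10.13 in nicotine-sired animals 1 to 4, against 9.66, 9.67, 9.70 and 9.82 in saline-sired animals 1 to 4. All 4 nicotine-sired animals lay above all 4 saline-sired animals, by less than 0.01 at the nearest pair. The difference was 0.25 ± 0.08 (SE, limma adjusted p = 0.0976). Groups that did not overlap, with nicotine-sired higher, were found for 2 of 78 genes, Rpl19 among them (2.56%), against 8.19% of all kept probe sets, and with nicotine-sired lower for 0 of 78 genes, against 6.15%.

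Rpl23a, at the exit of the peptide tunnel, had 7.29, 7.27, 7.38 and 7.27 in nicotine-sired animals 1 to 4, against 7.13, 6.88, 6.79 and 7.32 in saline-sired animals 1 to 4. The nicotine-sired animals lay close together near the top of a wide saline-sired range (difference 0.27 ± 0.12, limma adjusted p = 0.191). Rpl34 had 12.04, 11.95, 12.03 and 12.17 in nicotine-sired animals 1 to 4, against 11.91, 11.87, 11.97 and 11.97 in saline-sired animals 1 to 4, with nicotine-sired animal 2 inside the saline-sired range (difference 0.11 ± 0.06, limma adjusted p = 0.241).

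Large-subunit genes with a negative difference and the smallest p were Rpl7, Rpl10, Rpl5l1, Rpl24 and Rpl9. Rpl7 had 8.80, 8.46, 8.77 and 8.74 in nicotine-sired animals 1 to 4, against 8.82, 8.93, 8.75 and 8.80 in saline-sired animals 1 to 4, with nicotine-sired animal 2 the lowest. The difference was -0.13 ± 0.09 (limma adjusted p = 0.368), and -0.06 without that animal. Rpl10, one of the last proteins to join the large subunit, had 7.31, 6.83, 7.22 and 7.64 in nicotine-sired animals 1 to 4, against 7.54, 7.36, 7.31 and 7.50 in saline-sired animals 1 to 4, again with nicotine-sired animal 2 lowest (difference -0.17 ± 0.15, limma adjusted p = 0.509). It was -0.04 without that animal and -0.30 without nicotine-sired animal 4. The probe set used for Rpl10 lay on chromosome 1, while its RefSeq promoter lies on chromosome X, so which copy was measured is uncertain. The differences were -0.08 for Rpl5l1, -0.06 for Rpl24 and -0.04 for Rpl9, with overlapping groups in each.

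The genes with the smallest spread over the 8 arrays besides Rps29 were Rpl13a and Rpl21. Rpl13a, which in human monocytes also silences inflammatory messages, averaged 11.81 ± 0.07 in nicotine-sired and 11.77 ± 0.05 in saline-sired animals, and Rpl21 12.25 ± 0.06 in nicotine-sired and 12.18 ± 0.03 in saline-sired animals (SD, n = 4 each). Rpl23 and Rpl31, whose probe sets with that of Rps29 had the highest signals, differed by 0.09 and 0.10. Signals of different probe sets depend on the probes and do not rank the genes by abundance.

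The stalk recruits the elongation factors, with Rplp0 as its base and pairs of Rplp1 and Rplp2 on it. Rplp0 had 8.12, 8.02, 7.86 and 8.14 in nicotine-sired animals 1 to 4, against 7.66, 7.47, 7.95 and 7.89 in saline-sired animals 1 to 4. Saline-sired animals 3 and 4 lay above nicotine-sired animal 3, so the groups overlapped (difference 0.29 ± 0.12, limma adjusted p = 0.178). Rplp2 had 10.65, 10.45, 10.55 and 10.66 in nicotine-sired animals 1 to 4, against 10.52, 10.49, 10.50 and 10.60 in saline-sired animals 1 to 4, a difference of 0.05 ± 0.06. Rplp0 was in the upper end of the range of the 78 genes and Rplp2 near its median.

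**Figure D3:**
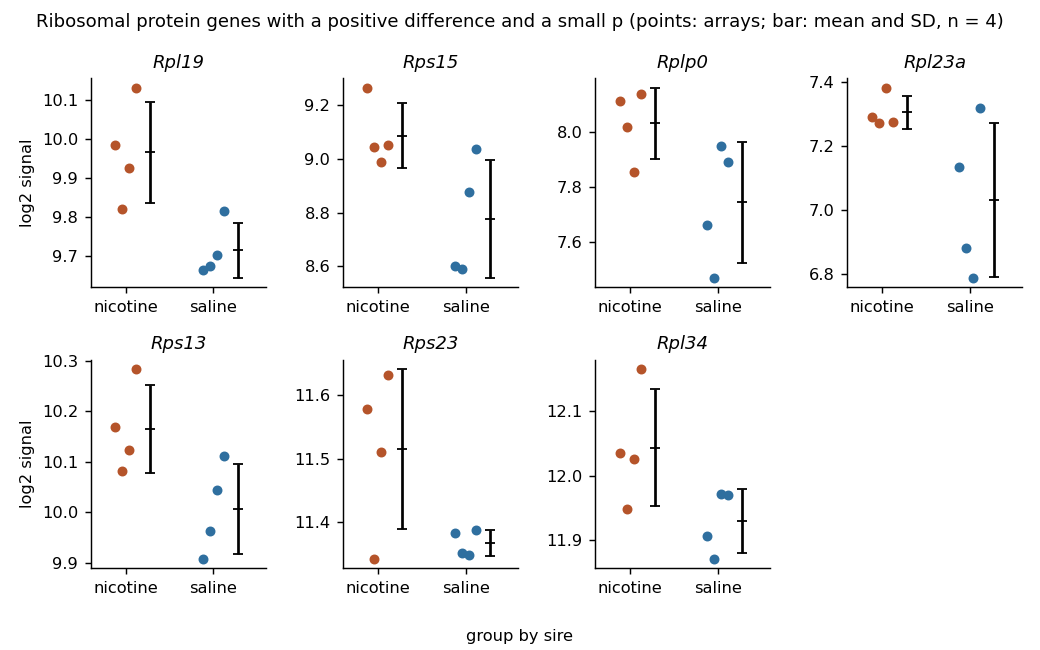
Log2 signal (vertical axis, its own range in each panel) of 7 of the 8 genes with the smallest p among those with a positive difference, for nicotine-sired (left) and saline-sired (right) animals. Points are arrays and the bar is the mean with its SD (n = 4), and the groups are apart in the panel of Rpl19 and overlap in the others.

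Paralogs, copies that can take the place of a standard protein in some tissues, mostly lay below the filter. Of the 19 paralog or "like" genes, 8 were tested, 4 of them with a positive difference. Of these 8, 0 passed the limma test and 0 had an unadjusted p under 0.05, against 2.06% and 24.0% of all kept probe sets. With 8 genes, such counts say little about paralogs. The median difference of the 8 was -0.02, against 0.06 for the 70 standard genes tested, of which 53 were higher. Rpl3l, a muscle paralog of Rpl3, lay below the filter with a difference of -0.11, and Rpl3 itself differed by 0.01. Rpl39l, known from testis, was also below it (-0.18, against 0.02 for Rpl39). Rpl10l, another testis paralog, was tested and differed by 0.01 ± 0.14, while Rpl10 differed by -0.17.

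Rpl7l1 averaged 9.86 ± 0.05 in nicotine-sired and 9.79 ± 0.09 in saline-sired animals (SD, n = 4 each), a difference of 0.07, opposite in sign to that of Rpl7. Rpl36al and Rpl36a differed by -0.05 and 0.02. Rpl22l1 lay below the filter (-0.04), and Rpl22 differed by 0.06. Rps4y2 was below the filter (-0.09), and Rps4x, the X-linked gene, differed by 0.09. Rps27l and Rps27 were both below it, with 0.11 and -0.0028, and so was Rpl26, with -0.17. The lowest signals of all were those of the Rps15al1, Rpl22l2 and Rps9 probe sets. Of the 16 genes below the filter, 5 carried standard symbols, namely Rpl5, Rpl26, Rpl27a, Rps9 and Rps27.

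The 78 genes moved together from animal to animal, more than they differed between the groups. After each gene was centred on its mean over the 8 arrays, the mean level over the 78 genes was 0.03, -0.05, 0.00 and 0.12 in nicotine-sired animals 1 to 4, against -0.08, -0.11, -0.02 and 0.09 in saline-sired animals 1 to 4. The groups overlapped: saline-sired animal 4 lay above 3 of the 4 nicotine-sired animals. The group means were 0.03 ± 0.07 in nicotine-sired and -0.03 ± 0.09 in saline-sired animals (SD, n = 4 each), and their difference of 0.06 was smaller than the within-group SD of 0.082.

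Animal 4 was the highest of its group for 49 of 78 genes among nicotine-sired and 59 of 78 among saline-sired animals (62.8% and 75.6%), against 26.5% and 34.0% of all kept probe sets. Animal 2 was the lowest for 54 of 78 and 40 of 78 (69.2% and 51.3%), against 23.2% and 24.2%. Nicotine-sired animal 4 is the one with the high choroid plexus and striatal markers, while saline-sired animal 4 had choroid plexus markers at -0.93 and striatal and septal markers at -0.22. The part of these markers in the ribosomal levels was not tested.

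**Figure D4:**
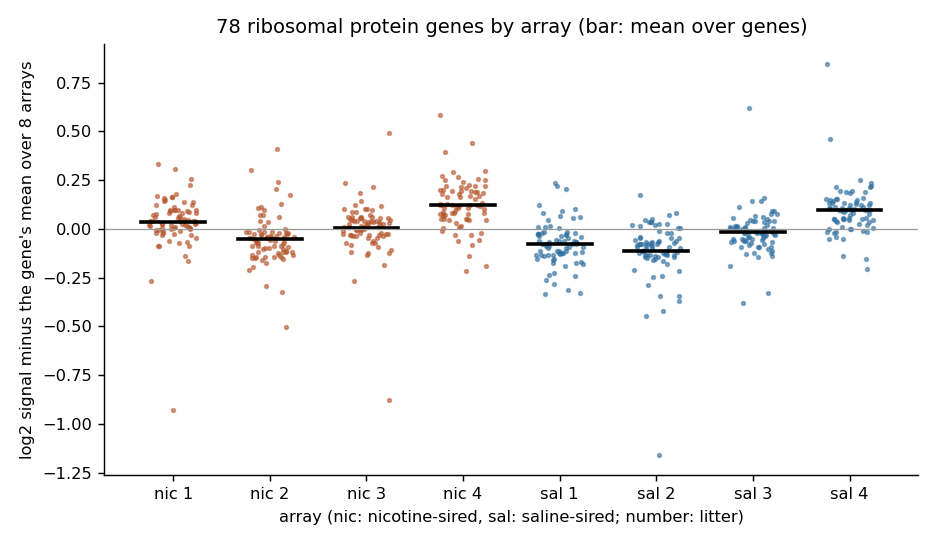
Log2 signal of each of the 78 tested genes minus its own mean over the 8 arrays (vertical axis) in nicotine-sired (nic) and saline-sired (sal) animals (horizontal axis, numbered by litter). Points are genes and bars their mean, which is highest in nicotine-sired animal 4 (0.12) and saline-sired animal 4 (0.09).

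As a description over the 8 arrays, which also differ in the cell type markers above, the median Pearson r of a gene with the mean of the other 77 was 0.75, from -0.49 for Rpl7l1 to 0.951 for Rps25. Of the 78 genes, 58 had an r above 0.5, and 18.9% of all kept probe sets had such an r with the mean of the ribosomal protein genes. The probe sets used for Rps29 and Rpl10l also ran against the rest, with -0.26 each. For Rps29 this need not hold for the gene, as its 3 probe sets disagreed, with a lowest r of -0.50. Outside the gene set, the patterns most like the mean were those of Cyb5a (r = 0.978), Gnpda2 (0.975) and LOC685085, annotated as similar to ribosomal protein S25 (0.961).

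Promoters were read from RefSeq (GRCr8, 250 bases before to 50 after the annotated start) and matched 70 of the 94 genes by gene ID. A C at the start base followed on the sense strand by 4 bases that are each C or T, the letters of a terminal oligopyrimidine tract, was found in 21 of 70, against 2.63% of all 33469 promoters in the table. It was in 38.2% of the 55 standard genes and 0 of the 15 paralog or "like" genes matched. With a start allowed to shift by up to 10 bases either way, the shares were 67.1% of the 70 genes and 28.9% of all promoters. Such a run was then in 72.7% of the standard genes and in 7 of the 15 paralog or "like" genes (46.7%). The windows below show the 4 genes with the smallest p among those with such a tract and a positive difference, and the 3 with the smallest p and a negative one. Each has 30 bases with the start base in position 16, and the capitals mark the longest run of C and T.
Rpl19: cgcgaccagcaagCTCTTTCCTTTCgctgc
Rps15: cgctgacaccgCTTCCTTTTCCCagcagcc
Rplp0: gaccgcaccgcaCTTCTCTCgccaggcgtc
Rpl34: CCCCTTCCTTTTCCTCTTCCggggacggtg
Rps18: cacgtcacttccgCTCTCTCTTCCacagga
Rpl10: caggcgtgggagcgTCTCTTTTCCTCTggc
Rpl9: gacgaaggacgTTCTCTCTTTgccccatct
They lie at chr10:83519049-83519078 (plus strand), chr7:10068101-10068130 (minus), chr12:46718376-46718405 (minus), chr2:221962269-221962298 (minus), chr20:4933730-4933759 (plus), chrX:157205835-157205864 (plus) and chr14:43247575-43247604 (plus). The run covers the start base in all 7. Of the tested genes with the tract 13 of 20 were higher, and of those without it 27 of 37, with a median difference of 0.04 in both.

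The letters TCGCGA, which read alike on both strands, were in 12 of 70 promoters (17.1%), against 2.29% of all promoters. They are the centre of an element that is known in human cells from promoters of housekeeping genes. All 12 belonged to standard genes, and 7 of the 10 tested had a positive difference. The 3 windows below show the match in capitals, with its first base 50, 49 and 15 bases before the annotated start.
Rpl10a: cgagccattcTCGCGAgagcacgagc
Rps19: tttgtcgctcTCGCGAgccctccgaa
Rps7: tgagctgttcTCGCGAgagctgtgtc
They lie at chr20:6390473-6390498 (plus strand), chr1:89608629-89608654 (plus) and chr6:50999445-50999470 (minus). The differences were 0.13 for Rpl10a, 0.20 for Rps19 and -0.06 for Rps7. CCGGAA, the core letters bound by Ets factors, was on either strand of 42.9% of the ribosomal promoters and 5004 of the 33469 in the table, and TATAAA in 11.4% and 14.2%.

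Several probe sets carried the symbol of the same gene in 34 cases. Ribosomal protein genes have many processed pseudogene copies, and probes can bind more than 1 near-identical transcript, so which copy a probe set measured is uncertain. The probe set used lay on the chromosome of the gene's own band in 63 genes and on another chromosome in 18, all 18 with several probe sets. For 11 genes no band was given, and for 2, Rpl19 among them, the probe set was not placed on a chromosome. The 11 include Rpl10, Rpl35a, Rpl5l1 and Rpl31l2, whose RefSeq promoters lay on another chromosome than the probe set used. Of these, Rpl5l1 and Rpl31l2 had 1 probe set each. Of 29 genes with at least 2 tested probe sets, 19 had differences of 1 sign and 10 of both. In 4 genes, Rpl18, Rpl30, Rpl39 and Rps10, 9 probe sets held the same values as another of their gene, so part of this agreement is repetition. The probe sets of Rpl18 ran from a difference of -0.46 to 0.14 and those of Rpl13 from -0.27 to 0.11. The probe sets used for these genes had 0.14 and 0.10. Of 53 further tested probe sets of the ribosomal protein genes, 50 lay within 0.3 of 0 and 0 beyond 0.5.

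All 6 probe sets of Rpl38 were higher, by 0.12 to 0.19, with a lowest r between any pair of 0.932. The 6 of Rpl39, a protein of the exit tunnel, differed by 0.01 to 0.06, and 2 of them held identical values. The 3 of Rps29 disagreed: -0.03 on its own chromosome and 0.14 and 0.19 on others, with a lowest r of -0.50. With the brightest probe set on the gene's own chromosome, a choice made after seeing the data, 64 genes were tested. Of these 0 passed, against 2.06% of all kept probe sets, 47 were higher and the median was 0.06. Rpl19, whose probe set was not placed, was not among them, and their smallest limma adjusted p was 0.142.

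Rpl30, whose yeast counterpart binds its own transcript, turned on 1 array. Its brightest probe set, on chromosome 10, had 10.30, 11.63, 11.71 and 11.81 in nicotine-sired animals 1 to 4, against 10.99, 10.98, 11.10 and 11.27 in saline-sired animals 1 to 4. Nicotine-sired animal 1 was the lowest of the 8 and the other 3 nicotine-sired animals were the highest. The difference was 0.28 ± 0.29 with all 8 arrays (limma adjusted p = 0.59) and 0.63 ± 0.08 without nicotine-sired animal 1 (limma adjusted p = 0.0358). The probe set on the gene's own chromosome 7 had 11.26, 11.06, 11.16 and 11.23 in nicotine-sired animals 1 to 4, against 10.94, 10.86, 11.10 and 11.22 in saline-sired animals 1 to 4. Nicotine-sired animal 1 was not low there, and the difference was 0.15 (limma adjusted p = 0.296).

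**Figure D5:**
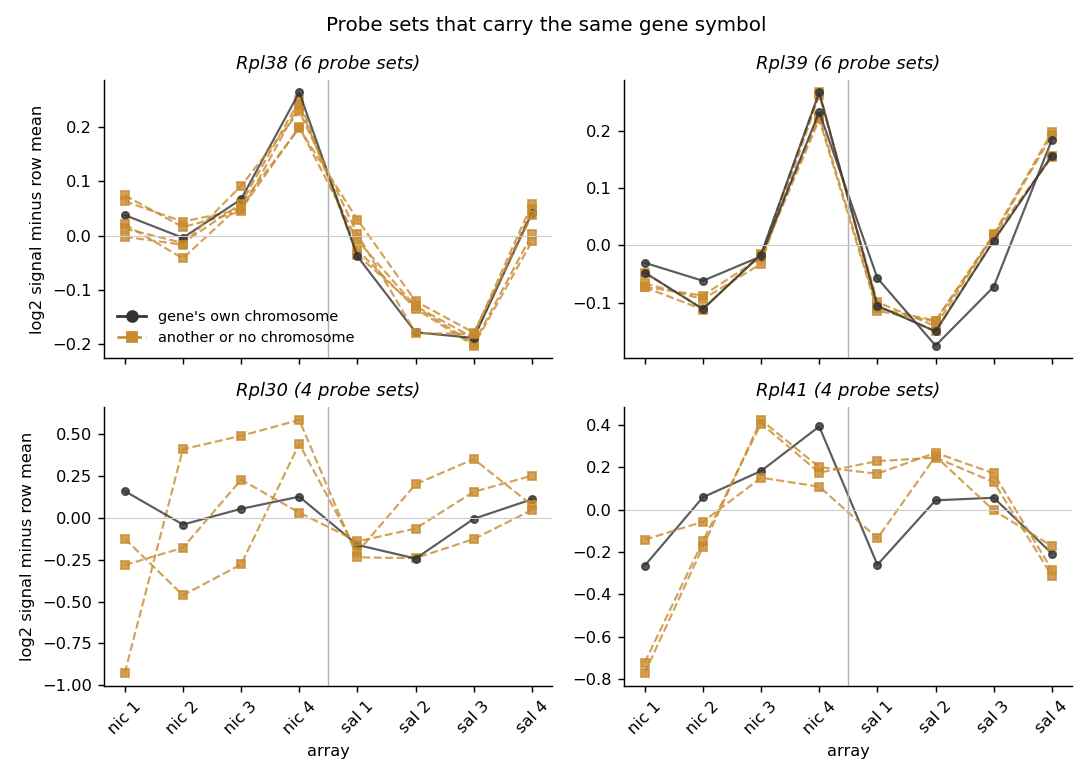
Log2 signal minus the mean of the probe set (vertical axis, its own range in each panel) on the nicotine-sired (nic) and saline-sired (sal) arrays (horizontal axis) for the tested probe sets of Rpl38, Rpl39, Rpl30 and Rpl41, with those on the gene's own chromosome drawn solid. The probe sets of Rpl38 and of Rpl39 follow one another, 2 of those of Rpl39 with identical values, and those of Rpl30 and Rpl41 diverge, most on nicotine-sired animal 1.

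Other genes of protein synthesis were described with the same limma fit, and 0 passed in any list, against 2.06% of all kept probe sets. The share of genes with an unadjusted p under 0.05 was below the 24.0% of all kept probe sets (13.9% higher and 10.1% lower) in each list. Of 75 mitochondrial ribosomal protein genes, which serve the separate ribosome of mitochondria, 36 were higher, with a median of -0.01, and 1 higher and 3 lower had an unadjusted p under 0.05 (5.33%). Mrpl32 had 7.83, 7.93, 7.89 and 7.92 in nicotine-sired animals 1 to 4, against 8.11, 8.08, 8.11 and 8.08 in saline-sired animals 1 to 4. All nicotine-sired animals were lower (difference -0.20 ± 0.06, limma adjusted p = 0.0976), while Mrpl34 had a positive difference of 0.33 ± 0.11 (limma adjusted p = 0.118).

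Of 33 initiation factors, 21 were higher with a median of 0.01, and 1 higher and 2 lower had an unadjusted p under 0.05 (9.09%). The smallest p were those of Eif1ax (-0.22 ± 0.06, limma adjusted p = 0.0816) and the helicase Eif4a2 (-0.21 ± 0.06, limma adjusted p = 0.0976). Of 15 elongation and related factors, 9 were higher with a median of 0.02, and 1, lower, had an unadjusted p under 0.05 (6.67%). That was Eef1a2, the neuronal and muscle form of this elongation factor (-0.13 ± 0.05), followed by Eef1d (0.09 ± 0.08).

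Of 57 ribosome biogenesis genes, 34 were higher with a median of 0.03, and 5, all higher, had an unadjusted p under 0.05 (8.77%, against 13.9% higher over all kept probe sets). Rrp8, a nucleolar methyltransferase, differed by 0.25 ± 0.07 and Tcof1, which promotes transcription of ribosomal RNA genes, by 0.31 ± 0.11 (limma adjusted p = 0.0966 and 0.135). Of 13 RNA polymerase I genes, 7 were higher with a median of 0.04 and 1, lower, had an unadjusted p under 0.05 (7.69%). Twistnb, a polymerase I subunit, differed by -0.21 ± 0.07 and Ttf1 by 0.21 ± 0.11. Of 21 genes of the mTOR and S6 kinase pathway, 10 were higher with a median of -0.01, and 3, all lower, had an unadjusted p under 0.05 (14.3%, against 24.0% in either direction and 10.1% lower over all kept probe sets). The smallest p were those of Tsc2, an inhibitor of mTOR (-0.24 ± 0.06, limma adjusted p = 0.0652), and Rheb, its activator (-0.34 ± 0.09, limma adjusted p = 0.0715).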

How the data were processed

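Dorsal hippocampal RNA of 8 rats was measured on 8 arrays, and groups were taken from the paternal treatment in the labels. The authors deposited log2 signals of 36685 probe sets for each array. MAS5 is listed, without version or role, per the submitters' processing notes. The sources used here give neither the array model nor the method of summary. The authors' deposited analysis table repeats these log2 values. It adds a p-value, an adjusted p-value and a linear ratio of nicotine over saline, per the file headers, with no model named.

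Of the probe sets, 30323 belonged to gene classes, and the 15161 with a mean log2 above their median of 6.30 went into a two-sided test (limma 3.58.1, R 4.3.3, moderated variances with a trend, adjusted p by Benjamini-Hochberg over all kept, threshold 0.05). Intervals are limma's at 95%. The method was tested on simulated data with noise independent between probe sets and added differences larger than that of any ribosomal protein gene. That test does not show how often differences as small as theirs are found. The number of arrays limits the precision. Alternatives were quantile normalization, median centring, no or a stricter filter, pseudocounts of 16 and 64, array weights, no variance trend, a litter block, each array left out, the mean over the probe sets of a gene, and, added after seeing the data, the probe set on the gene's own chromosome.

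The genes and lists were chosen with earlier results of these data known. Named were the genes past the threshold, the 8 with the smallest p in each direction, the stalk genes, Rpsa and Rps27a, the paralog pairs, and the 3 most and least variable, brightest and dimmest, except 1 gene that is counted but not reported here. Rpl38, Rpl41, Rps25, Rpl10a, Rps19 and the genes listed for a promoter match, a low signal, or the placement or values of their probe sets were named after their values were seen. Other lists give the 2 genes with the smallest p. Symbols are those in the files, and RefSeq (GRCr8) held 91 of the 94 gene IDs, 7 under another symbol and 4 as pseudogenes. Marker levels are means over genes centred on their mean of 8 arrays.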

Additional observations from a re-analysis of the deposited data

Results flagged for a closer look

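Of 90 groups of 4 animals examined, 2 held an animal far from the other 3 by Dixon's test, and about 1 in 20 groups is marked by chance, or 4.5 here. Rpl30 had a log2 signal of 10.30 in nicotine-sired animal 1, against 11.63 to 11.81 in the other nicotine-sired animals. Rpl31 had 12.26 in nicotine-sired animal 2, against 12.38 in each of the others.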

How the results depend on the processing

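The count of ribosomal protein genes passing was 0 in each alternative except 1, Rpl30, without nicotine-sired animal 1. Their median difference stayed above 0, from 0.02 to 0.09 with each array left out. It was 0.10 with centring (66 of 78 genes higher, 84.6%), where the median of all kept probe sets also rose, to 0.06. With array weights it was 0.03, and 48 of 78 genes were higher (61.5%). As the mean over the probe sets of a gene it was 0.04, and 50 of 76 were higher (65.8%). The median of all kept probe sets was 0.02 in both of these settings. Without nicotine-sired animal 4 the median of the ribosomal protein genes was not above that of all kept probe sets. The count over all kept probe sets, 313, depended on the setting: 155 with no filter, 181 with the stricter filter (82 higher and 99 lower, against 179 and 134), 1201 with array weights, and 199 higher and 91 lower of 290 with centring. With each array left out it ran from 0 to 725. Of the nicotine-sired animals, dropping number 4 gave 725, number 2 gave 672, number 3 gave 98 and number 1 gave 80. Of the saline-sired animals, dropping number 4 gave 71, number 2 gave 8, and number 1 or number 3 gave 0 (2728 and 2929 at an unadjusted p under 0.05). With the litter number as a replicate block it was 0 (3326 at an unadjusted p under 0.05). The deviations of same-numbered animals over all kept probe sets correlated at -0.14, 0.18, -0.05 and -0.17, and not every animal correlated best with its own number. The mean level of the ribosomal protein genes was highest in animal 4 and lowest in animal 2 of both groups. These values cannot settle whether the numbers pair the animals or mark a shared batch, which was not tested. Over all tested ribosomal protein genes, the sign of the difference changed for 5 of 78 with quantile normalization, 9 of 78 with centring, 11 of 78 with array weights, 8 of 76 as the mean over the probe sets and 2 of 64 with the probe set on the gene's own chromosome, and for 3 to 14 with 1 array left out (14 without nicotine-sired animal 4). Among the genes named by the rule, the differences that changed sign were Rpl10l (-0.0219 with quantile normalization), Rps29 (0.0100 with centring and 0.0990 as the mean over its probe sets), Rpl39 and Rpsa (-0.0117 and -0.0411 with array weights), and Rpl22 and Rpl36a (-0.00822 and -0.133 as the mean over their probe sets). With 1 array left out, Rpl10l ran from -0.0996 to 0.0994, Rpl3 from -0.0281 to 0.0449, Rpl36a from -0.0127 to 0.0775, Rpl36al from -0.0998 to 0.0269, Rpl39 from -0.0511 to 0.0863 and Rpsa from -0.0243 to 0.0939. The cause was not tested. Signal over background limits the 16 genes below the filter.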

Other observations

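Probe sets annotated as ribosomal protein or similar but carried under other symbols, mostly predicted genes, numbered 201, and 96 lay above the filter. Of these 49 were higher, with a median difference of 0.00, and 0 passed the limma test, against 2.06% of all kept probe sets. Unadjusted, 1 was higher and 8 were lower at p under 0.05 (9.38%), whereas all 7 such genes among the cytosolic ribosomal protein genes were higher (8.97%), and both shares lay below the 24.0% of all kept probe sets (13.9% higher and 10.1% lower). The difference between these counts was not tested.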
